A study of Mus musculus with 6 samples.

Results

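The ERBB receptors and the EGF-family ligands were examined by RNA-seq in MECs, the epithelial cells of the mammary gland. The members were the rows of the raw count table whose gene symbol was Egfr, Erbb2, Erbb3 or Erbb4 for the receptors, or Areg, Ereg, Hbegf, Tgfa, Btc or Nrg1 for the ligands. All 10 were found among the 55487 genes listed, and all 10 passed the filter on low counts that 17165 genes passed. MECs from 3 wild-type (WT) and 3 IL-21isoTg mice were compared, with 1 library per mouse. All 6 mice were virgin BALB/c females of 10 weeks, chosen to show what differs before tumors form, and the stage of the estrous cycle was randomized. IL-21isoTg mice carry a transgene for a membrane-bound isoform of interleukin-21 that is expressed in T cells, so the MECs themselves are not the cells meant to express it. MECs were the cells left in digested mammary tissue after magnetic removal of cells with CD45 (leukocytes), CD31 (endothelium) or CD140a (fibroblasts). Luminal and basal epithelium were thus in 1 bulk sample, in which genes of fibroblasts, endothelium, adipocytes and salivary gland also had counts, as given below.

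The ERBB family comprises EGFR (the receptor of epidermal growth factor), ERBB2, ERBB3 and ERBB4, receptor tyrosine kinases that signal as dimers. EGFR binds amphiregulin (Areg), transforming growth factor alpha (Tgfa), epiregulin (Ereg), heparin-binding EGF (Hbegf) and betacellulin (Btc), whereas ERBB3 and ERBB4 bind neuregulins such as Nrg1, and ERBB2 has no known ligand of its own and serves as a dimer partner. The ligands are made as membrane proteins and are released by metalloproteases. In the mammary gland, amphiregulin from hormone-sensing luminal cells mediates the growth of ducts in response to estrogen, and ERBB4 acts in alveolar differentiation and milk production through STAT5.

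The libraries held 15902886 to 25719244 counts, of which 7609 to 29530, or 0.0478% to 0.128%, lay on the 10 members. Levels are given below as CPM, the counts scaled to a common library size, after TMM scaling of the library sizes, in the order of mice 1, 2 and 3 of each genotype. Il21 had 0, 0 and 37 counts in WT and 795, 216 and 131 counts in IL-21isoTg mice. The luminal keratins and Epcam summed to 5041 to 6565 CPM in WT and 4472 to 7766 CPM in IL-21isoTg mice, and the 10 leukocyte markers to 20.9 to 38.4 CPM and 28.4 to 36.1 CPM. Fibroblast markers summed to 1952 to 3449 CPM in WT and 4315 to 4975 CPM in IL-21isoTg mice, and endothelial markers to 88.4 to 222 CPM and 136 to 306 CPM. The fibroblast sums did not overlap between the genotypes, and the part of fibroblasts in the levels of the members was not tested. The 15 salivary gland genes, which are no markers of MECs, took 22.9%, 6.59% and 15.7% of the counts in WT and 22.5%, 4.92% and 41.0% in IL-21isoTg mice. Among those 15, Smgc, Muc19 and Smr2 had 0 to 5 counts in every library. In WT mouse 1, 2.05% of the genes tested were at least 2 times the next highest library, and in IL-21isoTg mouse 3 it was 2.03%, against 0.0757% to 0.594% in the other 4 libraries. These libraries were kept, and values without WT mouse 1 or IL-21isoTg mouse 3 are given where a member's direction turned on them.

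To compare levels between members, counts were divided by the length of all annotated exons of the gene and expressed as a share of the summed per-length level of the 4 receptors, within each library. Erbb3, which encodes a receptor with a weak kinase that relays to PI3 kinase through its partners, took the largest share in all 6 mice, 56.0% to 64.5%. Erbb2 followed with 25.7% to 32.6%, and Egfr with 7.11% to 10.4%. Erbb4 took 0.737% to 1.52%. The ranges of the 4 receptors did not overlap, and the order was the same in all 6 mice. Erbb3 made up a mean of 61.0% ± 3.27 (SD, n = 6).

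The ligands were dominated by Areg. It took 88.4% to 94.8% of the per-length level of the 6 ligands, with a mean of 92.3% ± 2.82 (SD, n = 6). The other ligands lay far below. Hbegf took 1.93% to 4.57%, Tgfa 0.947% to 3.12%, Ereg 0.662% to 3.07%, Btc 0.697% to 1.03% and Nrg1 0.231% to 1.61%. The ranges of those 5 ligands overlapped with their neighbours in the order, so that only the place of Areg was the same in every mouse.

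**Figure D1:**
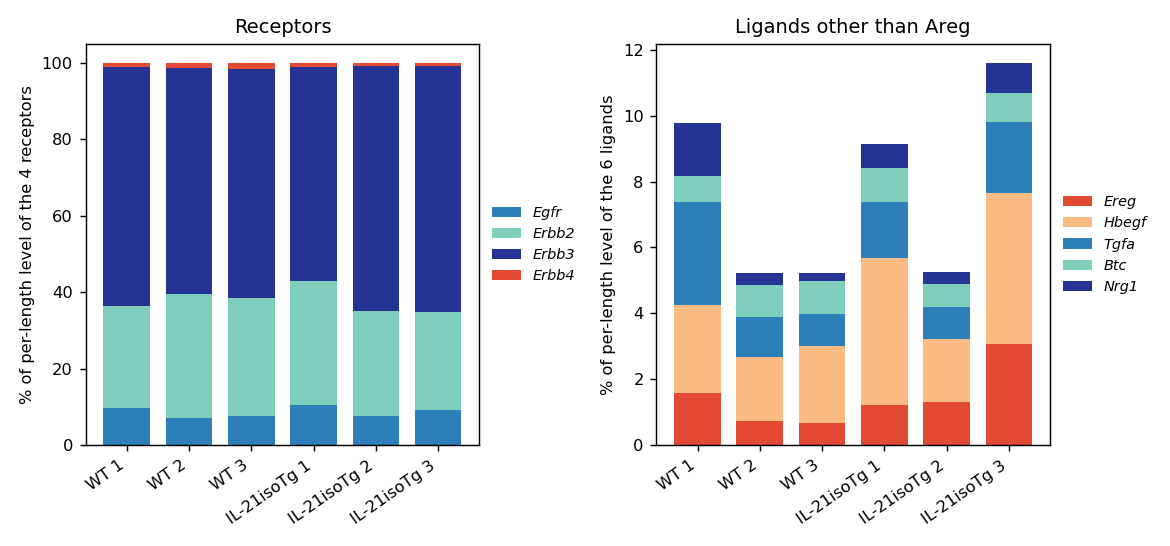
Share of each receptor in the summed per-length level of the 4 receptors (left, percent) and share of each ligand other than Areg in that of the 6 ligands (right, percent), with 1 bar per mouse. Erbb3 and Erbb2 make up most of the receptor level in every mouse, and the 5 ligands other than Areg together stay far below the share of Areg.

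The 4 receptors were compared between the genotypes first. Egfr, at chr11:16752203-16918158 on the plus strand of GRCm38, was measured at 56.1, 50.7 and 50.3 CPM in WT and at 52.7, 48.1 and 52.7 CPM in IL-21isoTg mice. The values of the genotypes overlapped and the highest was 1.17 times the lowest, the narrowest spread of the 10 members. The log2 fold change of IL-21isoTg over WT was -0.03 (SE 0.14, 95% interval -0.35 to 0.28), with an adjusted p of 0.973 in edgeR's quasi-likelihood test. Without WT mouse 1 it was 0.03.

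Erbb2, the preferred dimer partner of the other receptors, lies at chr11:98412470-98437716 on the plus strand. Its level was 70.8, 107 and 93.1 CPM in WT and 75.9, 80.2 and 68.5 CPM in IL-21isoTg mice. WT mouse 1 lay among the IL-21isoTg mice, while the other WT mice were above all 3 of them. Its log2 fold change of IL-21isoTg over WT was -0.27 (SE 0.18, interval -0.69 to 0.16, adjusted p = 0.827).

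Erbb3, at chr10:128567523-128589652 on the minus strand, stood at 191, 224 and 209 CPM in WT and at 151, 216 and 199 CPM in IL-21isoTg mice. IL-21isoTg mouse 1 was the lowest of the 6, and the other values of the genotypes were interleaved. Its log2 fold change was -0.14 (SE 0.18, interval -0.57 to 0.28, adjusted p = 0.902). The ratio of Erbb3 counts to Erbb2 counts was 2.69, 2.1 and 2.24 in WT and 1.98, 2.69 and 2.90 in IL-21isoTg mice, and these ranges overlapped.

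Erbb4, at chr1:68032186-69108059 on the minus strand, was the only member whose values did not overlap between the genotypes. It was measured at 6.81, 10.6 and 10.9 CPM in WT and at 5.53, 5.99 and 4.66 CPM in IL-21isoTg mice, from 151, 220 and 242 counts and 133, 161 and 50 counts. All 3 IL-21isoTg mice were below all 3 WT mice. The mean was 9.42 ± 2.27 CPM in WT and 5.40 ± 0.675 CPM in IL-21isoTg mice (SD, n = 3 each), a ratio of 0.575 in the fit. On the log2 scale the difference was -0.80 (SE 0.27, interval -1.42 to -0.17). Its unadjusted p was 0.0187, rank 360 among the 17165 genes tested, and the adjusted p in edgeR's quasi-likelihood test was 0.809, so Erbb4 was not called. The exact two-sided permutation test over mice gave p = 0.1, the smallest value that 3 mice against 3 allow. The adjusted p stayed between 0.373 and 0.994 over all alternatives, and the unadjusted p was 0.0658 without WT mouse 2, 0.0788 without WT mouse 3 and 0.0517 without IL-21isoTg mouse 3. In a bulk sample, fewer cells of a type and less RNA of a gene per cell cannot be told apart.

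Erbb4 was set beside markers of the hormone-sensing luminal cells. Of the 8 markers in that list, 7 were lower in IL-21isoTg mice, with a median log2 fold change of -0.49, against -0.02 over all genes tested. The markers summed to 516, 1389 and 1426 CPM in WT and to 710, 1042 and 660 CPM in IL-21isoTg mice, which overlapped because WT mouse 1 was the lowest of the 6. Cited1, a transcriptional coregulator of estrogen-responsive cells, did not overlap, at 85.4, 90.5 and 98.8 CPM against 52.3, 72.7 and 19.0 CPM, and neither did Tnfsf11, a progesterone-induced cytokine, at 27.1, 1.73 and 1.03 CPM against 0.790, 0.521 and 0.373 CPM. For Tnfsf11, WT mouse 1 was far above the rest, and IL-21isoTg mouse 3 was near its floor of 0.280 CPM. These were the only markers of the 8 without overlap, 2 lower and 0 higher, beside 6.54% and 5.54% of all genes. The luminal progenitor and alveolar markers were higher for 7 of 7 genes and the basal markers for 7 of 8, with medians of 0.61 and 0.55, and the milk protein genes summed to 523 to 1733 CPM in WT and 8818 to 20366 CPM in IL-21isoTg mice. The summed levels of the progenitor and of the basal markers overlapped between the genotypes. Higher as well were 6 of 7 fibroblast, 6 of 6 endothelial and 12 of 12 salivary gland genes tested, with medians of 0.57, 0.77 and 1.05. Of the 5 adipocyte markers 3 were tested, and all 3 were higher, with a median of 1.78. The adipocyte markers summed to 25.4 to 67.8 CPM in WT and 30.1 to 192 CPM in IL-21isoTg mice, which overlapped. Of the 8 leukocyte markers tested, 5 were lower, with a median of -0.08. Per Erbb2 count, Erbb4 had 0.0962, 0.0991 and 0.117 counts in WT and 0.0728, 0.0747 and 0.0680 counts in IL-21isoTg mice, again without overlap. Per count of Esr1, the estrogen receptor, it had 0.213, 0.159 and 0.174 counts in WT and 0.17, 0.117 and 0.144 counts in IL-21isoTg mice, and these overlapped. Per count of Foxa1, a luminal transcription factor, the values also overlapped, at 0.113, 0.0794 and 0.0761 against 0.0715, 0.0678 and 0.0858. Of the 6 ratios of Erbb4 to another gene that were computed (to Erbb2, Erbb3, Esr1, Foxa1, Cited1 and Prlr), the 5 others than that to Erbb2 overlapped. The ratios were chosen after the values were seen and are a description without a test. Of the 15 pairs of mice, 4 were in the same order for Erbb4 as for the salivary gland genes, and the others were in the reverse order. With the salivary share as a covariate, the log2 fold change of Erbb4 was -0.69. Its unadjusted p in edgeR's quasi-likelihood test was then 0.0366, and the adjusted p was 0.753. The part of hormone-sensing cells, of the other cell types and of salivary gland RNA in the level of Erbb4 was not tested.

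The promoter of Erbb4 is shown because this gene had the only difference without overlap. The window runs from 250 bases before to 50 bases after the transcription start (RefSeq, GRCm38.p6, chr1:69108010-69108309, minus strand), and 55.3% of its bases are G or C, against a median of 52.7% over 32851 mouse promoters of the same length.
Erbb4: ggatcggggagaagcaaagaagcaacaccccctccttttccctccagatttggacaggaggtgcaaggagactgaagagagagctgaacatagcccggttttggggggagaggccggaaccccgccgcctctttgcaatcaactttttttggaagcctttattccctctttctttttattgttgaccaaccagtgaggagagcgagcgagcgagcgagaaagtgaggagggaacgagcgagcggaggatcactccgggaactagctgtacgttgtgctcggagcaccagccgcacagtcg
The motifs searched, on both strands, were the cAMP response element TGACGTCA, the AP-1 site TGANTCA and the TATA box TATAAA, and none of these letters occurs in the Erbb4 window. They occur in 1.79%, 7.81% and 13.6% of all promoters.

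**Figure D2:**
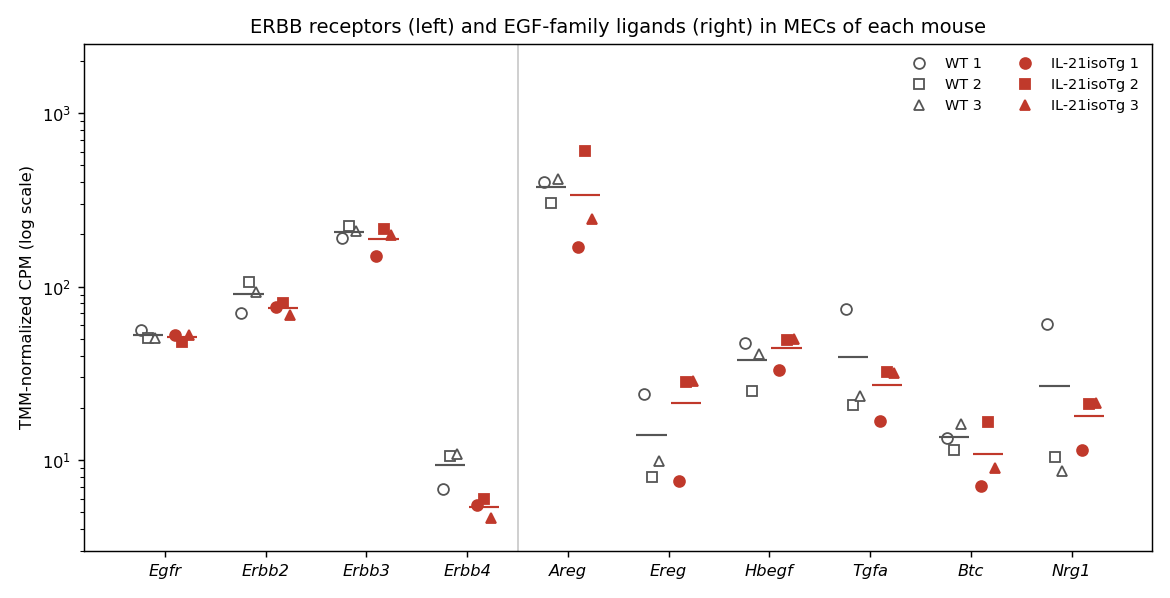
Level of each receptor (left of the line) and ligand (right) in each mouse, as TMM-normalized CPM on a log axis, with open grey symbols for WT and filled red symbols for IL-21isoTg mice and a bar at each group's mean. Only Erbb4 separates the genotypes, and WT mouse 1 (open circle) stands above the other mice for Tgfa at 74.2 CPM and for Nrg1 at 61.1 CPM.

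Among the ligands, Areg, Ereg and Btc lie together on chromosome 5 with a gene that is no member, Epgn (epigen). These 4 are the only protein-coding genes in the 375.53 kb from 91027464 to 91402994 of GRCm38. Areg occupies chr5:91139599-91148432 and Ereg chr5:91074622-91093646, both on the plus strand, and Btc occupies chr5:91357261-91402994 on the minus strand. The promoters of Areg and Btc are shown because these neighbours were each other's nearest member in their pattern over the 6 mice, and because Areg made up most of the ligand level. Both are RefSeq windows of GRCm38.p6 from 250 bases before to 50 bases after the start, at chr5:91139349-91139648 (plus strand) and chr5:91402945-91403244 (minus strand), with the motifs named above in capitals.
Areg: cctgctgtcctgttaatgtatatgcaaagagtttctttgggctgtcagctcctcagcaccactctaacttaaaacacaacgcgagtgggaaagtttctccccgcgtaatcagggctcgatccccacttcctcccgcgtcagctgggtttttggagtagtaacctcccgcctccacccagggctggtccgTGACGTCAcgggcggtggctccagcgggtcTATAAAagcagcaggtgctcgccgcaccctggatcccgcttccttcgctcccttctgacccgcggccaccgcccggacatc
Btc: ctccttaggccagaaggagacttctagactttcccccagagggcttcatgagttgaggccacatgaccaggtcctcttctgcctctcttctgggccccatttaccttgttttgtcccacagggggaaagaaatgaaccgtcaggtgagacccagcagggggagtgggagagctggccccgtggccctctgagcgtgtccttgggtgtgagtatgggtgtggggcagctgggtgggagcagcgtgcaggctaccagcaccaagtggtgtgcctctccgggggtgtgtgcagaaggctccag
The Areg window holds the cAMP response element 61 bases before the start and TATAAA 31 bases before it. The Btc window holds none of the 3 motifs. The shares of G and C were 59.3% and 60.3%. For the members, 6 of 10 had a promoter in the table, and a motif match is a description of letters and not evidence of binding.

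Areg was the most abundant ligand, at 402, 305 and 415 CPM in WT and 168, 603 and 244 CPM in IL-21isoTg mice. The IL-21isoTg mice spread around the WT mice, with mouse 2 above all of them and mice 1 and 3 below. The means were 374 ± 60.1 CPM and 338 ± 232 CPM (SD, n = 3 each). Areg had a log2 fold change of -0.15 (SE 0.44, interval -1.15 to 0.86, adjusted p = 0.962). It ranged from -0.86 without IL-21isoTg mouse 2 to 0.18 without IL-21isoTg mouse 1, and was 0.04 without IL-21isoTg mouse 3, so the direction turned on single mice. Areg counts per count of Pgr, the progesterone receptor, ranged from 1.94 to 7.51, and per count of Esr1 from 4.6 to 12.6, and the genotypes overlapped in both.

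Btc encodes betacellulin, a ligand of both EGFR and ERBB4. It stood at 13.4, 11.4 and 16.2 CPM in WT and at 7.11, 16.5 and 8.95 CPM in IL-21isoTg mice. As for Areg, IL-21isoTg mouse 2 was the highest of the 6 and IL-21isoTg mice 1 and 3 were the lowest. For Btc the log2 fold change was -0.33 (SE 0.33, interval -1.10 to 0.44, adjusted p = 0.871). Areg and Btc were each in the order of the salivary gland genes in 3 of 15 pairs of mice, and IL-21isoTg mouse 2, highest for both, had the lowest salivary share at 4.92%. Erbb2 and Erbb3 were in that order in 3 of 15 pairs as well, Ereg in 8, Hbegf in 9 and Egfr in 11. For each of these genes the other pairs were in the reverse order. The part of salivary gland RNA in these levels was not tested. Without IL-21isoTg mouse 2 the unadjusted p was 0.0118 for Areg and 0.0259 for Btc, with adjusted p of 0.547 and 0.550.

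Ereg encodes epiregulin and lies between Epgn and Areg. It was measured at 24.1, 8.02 and 9.85 CPM in WT and at 7.61, 28.1 and 28.7 CPM in IL-21isoTg mice. In each genotype, 1 mouse lay with the other genotype, namely WT mouse 1 among the high values and IL-21isoTg mouse 1 among the low ones. The log2 fold change was 0.61 (SE 0.57, interval -0.70 to 1.92, adjusted p = 0.858), the largest positive value of the members. With each mouse left out in turn it ran from 0.34 without WT mouse 2 to 1.27 without WT mouse 1, with an adjusted p of 0.732 in the latter. Areg counts were 16.7, 38.0 and 42.1 times those of Ereg in WT and 22.1, 21.4 and 8.49 times in IL-21isoTg mice. These counts were not divided by exon length, which is 1215 bp for Areg and 4128 bp for Ereg.

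Hbegf encodes a ligand of EGFR and ERBB4 that stays partly bound to heparan sulfate. Its level was 47.3, 25.0 and 40.7 CPM in WT and 32.9, 49.0 and 50.2 CPM in IL-21isoTg mice. IL-21isoTg mice 2 and 3 were the highest, and IL-21isoTg mouse 1 lay within the WT range. For Hbegf the log2 fold change was 0.22 (SE 0.27, interval -0.40 to 0.85, adjusted p = 0.890).

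Tgfa encodes transforming growth factor alpha, and Nrg1 encodes neuregulin 1, the ligand of ERBB3 and ERBB4. In GRCm38 they lie at chr6:86195223-86275719 (plus strand) and chr8:31814551-32884029 (minus strand). Tgfa stood at 74.2, 20.9 and 23.4 CPM in WT and at 16.9, 32.2 and 32.0 CPM in IL-21isoTg mice. Nrg1 stood at 61.1, 10.4 and 8.64 CPM in WT and at 11.5, 21 and 21.5 CPM in IL-21isoTg mice. For both genes WT mouse 1 was more than 2 times the next highest library, and the other WT mice were at the low end. The log2 fold change of Tgfa was -0.55 (SE 0.50, interval -1.71 to 0.61, adjusted p = 0.856). The log2 fold change of Nrg1 was -0.58 (SE 0.71, interval -2.22 to 1.06, adjusted p = 0.893).

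The direction of Tgfa and Nrg1 rested on WT mouse 1. Without that mouse, the log2 fold change was 0.30 for Tgfa, with an adjusted p of 0.822. For Nrg1 it was 0.92, with an unadjusted p of 0.0188 and an adjusted p of 0.708. In the fit with WT mouse 1 and IL-21isoTg mouse 3 both left out, a setting added after the data were seen, the values were 0.15 and 0.77. Tgfa had 1.21, 2.01 and 2.70 counts per Nrg1 count in WT and 1.47, 1.53 and 1.49 in IL-21isoTg mice. In WT mouse 1, 352 of the genes tested were likewise at least 2 times the next highest library, and the salivary gland genes took 22.9% of its counts. The order of the mice was that of the salivary gland genes in 7 of 15 pairs for Tgfa and in 9 of 15 for Nrg1. What set WT mouse 1 apart was not tested.

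Over the 10 members, 8 were lower and 2 were higher in IL-21isoTg mice, with a median log2 fold change of -0.21. Over all genes tested 8949 were lower and 8216 higher, with a median of -0.02. The tally of the members rested on WT mouse 1, without which 5 were lower and 5 higher, with a median of -0.03. The median was -0.07 without IL-21isoTg mouse 1 and -0.51 without IL-21isoTg mouse 2, and without both WT mouse 1 and IL-21isoTg mouse 3 it was 0.05, with 6 members higher. None of the members had an adjusted p under 0.05 in edgeR's quasi-likelihood test, and over all 17165 genes it was 0%. DESeq2 called 66 genes higher and 10 lower, and none of the members was among them. At an unadjusted p under 0.05, 1 member was lower (Erbb4) and 0 were higher, while over all genes 2.63% were lower and 3.19% were higher. The values did not overlap between genotypes for 1 member, Erbb4, which was lower, and for 0 members that were higher. Over all genes this was so for 6.54% that were lower and 5.54% that were higher. Standard errors ran from 0.14 to 0.27 on the log2 scale for the 4 receptors and from 0.27 to 0.71 for the 6 ligands. A missing call therefore leaves differences of more than 2 times within the intervals of Erbb4, Areg, Ereg, Tgfa, Btc and Nrg1.

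**Figure D3:**
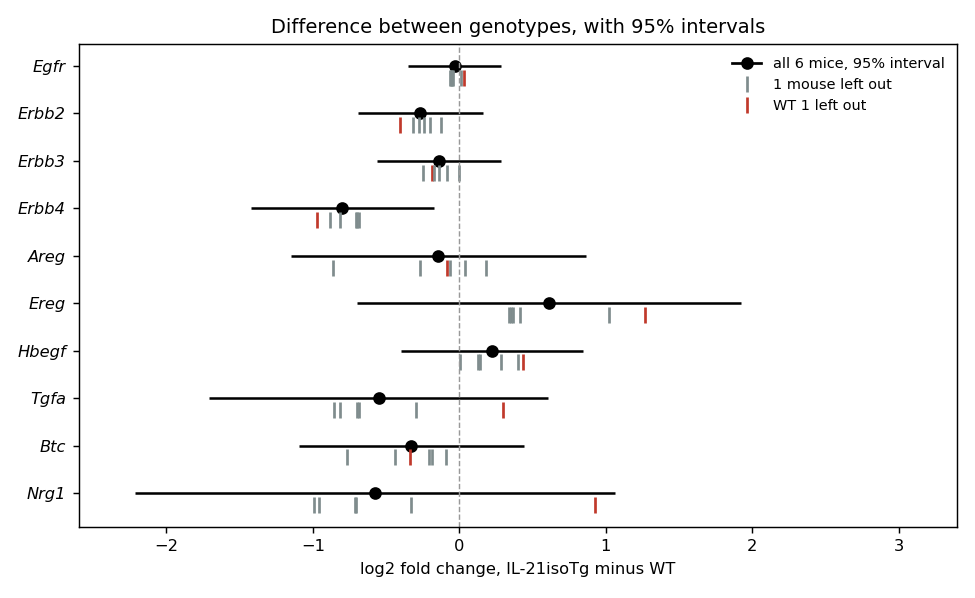
Log2 fold change of IL-21isoTg over WT for each member (black points) with its 95% interval, and the values with 1 mouse left out as ticks, with the value without WT mouse 1 in red. The interval of Erbb4 lies below 0 before adjustment, from -1.42 to -0.17, and Tgfa and Nrg1 move to 0.30 and 0.92 without WT mouse 1.

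The family has 5 further ligands in the count table. Egf, the founding ligand, stood at 36.0, 24.4 and 30.9 CPM in WT and at 49.3, 14.7 and 111 CPM in IL-21isoTg mice. The genotypes overlapped, and the log2 fold change was 0.93 (SE 0.59, adjusted p = 0.820). Egf was in the same order as the salivary gland genes in 15 of 15 pairs of mice. Its log2 fold change was -0.04 with the salivary share as a covariate and 0.09 without IL-21isoTg mouse 3. The part of salivary gland RNA in the level of Egf was not tested. Epgn, the neighbour of Ereg, stood at 29.4, 5.81 and 12.1 CPM in WT and at 6.32, 12.0 and 22.1 CPM in IL-21isoTg mice, with WT mouse 1 highest as for Tgfa and Nrg1. Nrg2 ranged from 2.65 to 7.11 CPM and Nrg4 from 5.32 to 9.27 CPM, with log2 fold changes of 0.29 and -0.03. Nrg3 had 0 counts in all 6 libraries, which allows up to 0.112 to 0.280 CPM per library at a floor of 3 counts. Erbb2, Ereg, Tgfa, Nrg1, Egf and Nrg4 share 9 to 607 bp of exon with genes on the opposite strand, and the strand setting of the counting was not given in the sources used here.

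Genes that act with the receptors were described from 4 lists. Of the 11 genes of ligand shedding, which are metalloproteases that release the ligands, iRhoms, the iRhom partner Frmd8 and the metalloprotease inhibitor Timp3, 7 were higher and 4 lower, with a median log2 fold change of 0.22 and none at an unadjusted p under 0.05. Lowest in p were the metalloproteases Adam8 (log2 fold change 0.89, adjusted p = 0.809), Adam12 (0.56, adjusted p = 0.809) and Adam9 (0.26, adjusted p = 0.839). Of the 25 genes that relay the signal, from the adaptor Grb2 to the kinases of the ERK and AKT routes, 11 were higher and 14 lower, with a median of -0.02 and again none at that p. Low in p among them were Src (0.25, adjusted p = 0.827) and Map2k2 (0.22, adjusted p = 0.847). The levels of the relay genes summed to 1923 to 1938 CPM in WT and 1829 to 2115 CPM in IL-21isoTg mice.

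Of the 13 inhibitors and turnover factors of the receptors, 5 were higher and 8 lower, with a median of -0.10. Cbl, the ubiquitin ligase that sends active EGFR to degradation, stood at 54.3, 60.1 and 56.6 CPM in WT and at 36.9, 48.1 and 44.2 CPM in IL-21isoTg mice. All IL-21isoTg mice were below all WT mice for Cbl, with a log2 fold change of -0.40 (SE 0.15, unadjusted p = 0.0310, adjusted p = 0.809). Socs4 (-0.32, adjusted p = 0.809) and Lrig2 (-0.25, adjusted p = 0.825) also did not overlap, and Socs5 (-0.40, adjusted p = 0.809) did. Of these 13, 3 were thus lower without overlap, and no gene was higher without overlap, beside 6.54% and 5.54% of all genes. Socs4 and Socs5 encode adaptors that promote turnover of EGFR, and Lrig2 encodes a membrane protein that interacts with the receptors. Lrig2 was chosen after its values were seen.

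Of the 18 ERK feedback and target genes, 8 were higher and 10 lower, with a median of -0.09. Ccnd1, which encodes cyclin D1, stood at 171, 269 and 210 CPM in WT and at 116, 191 and 89.4 CPM in IL-21isoTg mice. Its ranges overlapped, with a log2 fold change of -0.71 (SE 0.30, unadjusted p = 0.0458, adjusted p = 0.809). Dusp6, the ERK phosphatase, had a value of -0.33 (adjusted p = 0.809) with overlap. Myc had a value of 0.28 (adjusted p = 0.809), and all IL-21isoTg mice, at 139, 141 and 122 CPM, were above all WT mice, at 106, 104 and 120 CPM. Of these 18 genes, 1 was thus higher without overlap and 0 were lower, beside 5.54% and 6.54% of all genes. No gene of the 4 lists had an adjusted p under 0.05 in edgeR's quasi-likelihood test.

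**Figure D4:**
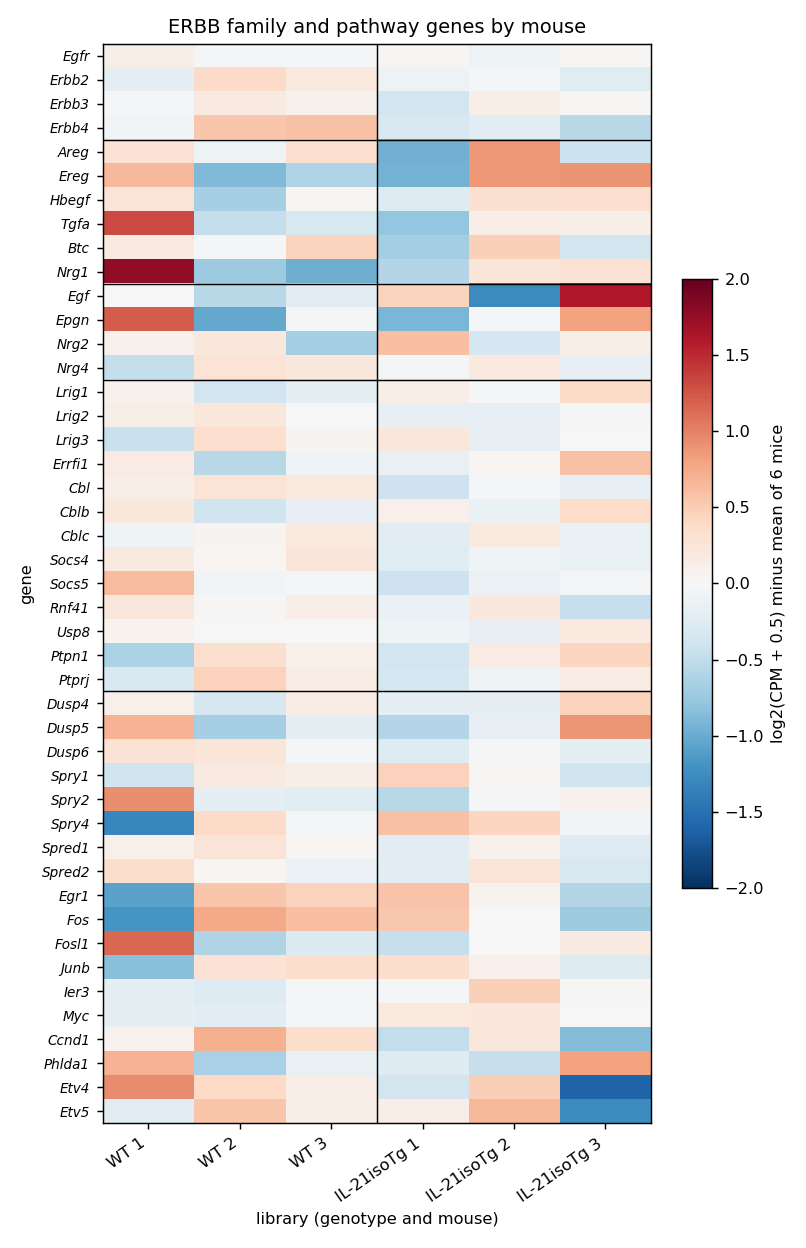
Deviation of log2(CPM + 0.5) from the mean of the 6 mice (color, log2 units) for the receptors, the ligands, the other ligands, the inhibitors and the ERK feedback and target genes (rows) in each mouse (columns). Erbb4 is low in the 3 IL-21isoTg mice, Nrg1 and Tgfa are highest in WT mouse 1, and Egf is highest in IL-21isoTg mouse 3.

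The patterns of the members over the 6 mice were compared by the root mean square (RMS) difference of log2 CPM after each gene's mean was removed, where 0 means the same pattern. The most like genes were Paip2 (0.018) for Egfr, Zfp2 (0.036) and Nt5dc1 (0.050) for Erbb2, and Tkfc (0.037) and Gm10232 (0.052) for Erbb3. For Areg they were Trp53inp1 (0.16) and Gm48236 (0.18), and for Btc they were Prss22 (0.12) and A630001O12Rik (0.13). Areg and Btc differed from each other by 0.20 and were each other's nearest member. For Ereg the nearest genes were Syna (0.18) and Gm45355 (0.23), and for Hbegf they were Vps37b (0.062) and Tgif1 (0.084). For Tgfa they were Fam107b (0.089) and Oaf (0.11), and for Nrg1 they were Glis1 (0.20) and Gm14221 (0.21). Tgfa and Nrg1 differed from each other by 0.37, more than either did from its most like genes. Erbb2 and Erbb3 differed by 0.20, and Erbb4 was nearest to Erbb2 at 0.28. The likeness is a description over 6 mice, in which a gene that varies little lies close to many others.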

How the data were processed

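RNA was measured in MECs of 3 WT and 3 IL-21isoTg mice, grouped by their labels. Libraries were poly(A)-selected and strand-marking. The authors deposited whole-number counts per gene without normalization, and these counts were used. The submitters' processing notes name FastQC 0.11.7, Trimmomatic 0.38, HISAT2 2.1.0, SAMtools 1.9, featureCounts 1.6.3, DESeq2 1.24.0 and the build mm10. The authors also deposited normalized counts and a comparison with fold changes and p-values, which were not used. No column was left unmapped, and no library was left out.

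Genes were filtered with filterByExpr in edgeR 4.0.16 (minimum count 10, minimum total count 15), scaled with TMM and compared with the quasi-likelihood test with robust dispersion estimates and a single term for genotype, in R 4.3.3. P-values were adjusted by Benjamini-Hochberg over 17165 genes and called under 0.05. For single values an exact permutation test over mice was run. Log2 fold changes are IL-21isoTg minus WT. Intervals are 95% and come from the same fit. Alternatives used DESeq2 1.42.0, limma 3.58.1, other scalings and filters, a replicate block, a salivary covariate, and each mouse left out. The code of the fit was checked on simulated counts, in which the changes set were larger than the difference of any member. Exon lengths and positions came from GENCODE M21 (GRCm38), in which 31020 of 31286 shared identifiers had the start and end of the deposited table. The Nrg1 entry differed. Promoters came from RefSeq. Every pair of libraries differed by far more than counting noise (chi-square per degree of freedom 68.7 or more). Labels name separate mice. Floors cover counting error only.

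The members, gene lists and tests were chosen with earlier results of these data known. The genes named are the 10 members, the 5 other ligands, the 3 genes of lowest p in each pathway list, markers needed to check the cell type, and for members of at least 10 CPM the 2 genes most like them. Ratios and Lrig2 were added after values were seen. Of the genes this rule takes, 2 are not reported here.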

Additional observations from a re-analysis of the deposited data

How the results depend on the processing

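Under 17 alternatives, 159 of 170 member values kept their direction and their side of the threshold, 11 changed sign, and 0 were called, with a smallest adjusted p of 0.373 (Erbb4, without WT mouse 1 and IL-21isoTg mouse 3, added after the data were seen). The number of genes called higher was 14 without a filter on low counts, 66 with DESeq2, 52 with the likelihood ratio test, and 6 without both of those mice, and the number called lower was 10 with DESeq2, 13 with the likelihood ratio test and 1 without both mice. The counts with each mouse left out ran from 0 to 6 higher, with 6 without WT mouse 3, and 0 to 0 lower. At an unadjusted p under 0.05, the members that were higher numbered 0 to 1 with each mouse left out (1, Nrg1, without WT mouse 1) and 1 without both mice. Those that were lower numbered 0 to 3, with 0 without WT mouse 2, WT mouse 3 or IL-21isoTg mouse 3, 2 without WT mouse 1 (Erbb2 and Erbb4), 3 without IL-21isoTg mouse 2 (Erbb4, Areg and Btc), and 2 without both mice (Erbb2 and Erbb4). With each mouse left out, the log2 fold change ran from -0.062 to 0.033 for Egfr, -0.86 to 0.18 for Areg, -0.855 to 0.30 for Tgfa and -0.996 to 0.92 for Nrg1. Without both mice it was 0.0044 for Egfr, 0.093 for Areg, 0.15 for Tgfa and 0.77 for Nrg1. The labels number the mice and name no pairing. The correlations of same-numbered deviations were -0.22, 0.07 and -0.06, and so few mice per group cannot exclude a pairing. With the replicate block, the log2 fold change of Nrg1 was 0.076, and no other member changed sign or side. With the longest transcript as length, Areg made up 89.2% of the ligand level, as Hbegf, Tgfa and Nrg1 have longer exon unions than longest transcripts. Apart from that construction, the cause of these changes was not tested. The lowest count of a member was 50 (Erbb4, IL-21isoTg mouse 3).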
